A study of Mus musculus with 15 samples.

Results

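Lesional skin was compared with non-lesional skin in placebo-treated mice that had received the same course of ultraviolet B, with 3 libraries per group and 6 of the 15 libraries of the series in all. The members were chosen from the labels, as the libraries marked lesional and non-lesional among the control samples. Both groups came from female SKH1 mice, a hairless strain that develops skin lesions under ultraviolet light. The age given for the mice, 6 to 8 weeks, cannot be that at sampling, because ultraviolet B lasted 10 weeks. The dose was 500 J/m2 on 5 days a week over 10 weeks, and 0.25 g of placebo cream was given on 5 days a week. As further references the series has perilesional and unexposed skin of placebo mice and lesions of mice given a cream with GZ21T, again with 3 libraries per group. The labels number the placebo libraries 1 to 3 at every site and do not say whether a number is a separate animal, so the p-values are set against differences among these libraries, part of which may be technical.

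Actinic keratosis is a lesion of keratinocytes that can precede squamous cell carcinoma, and it arises in a field of skin that carries the same ultraviolet damage but looks normal. In healthy epidermis, basal keratinocytes divide, and the cells that leave the basal layer exchange Krt5 and Krt14 for Krt1 and Krt10. They end as dead cornified cells, in which loricrin, filaggrin-family and late cornified envelope proteins form a cross-linked shell. Wounded or inflamed epidermis makes another set of proteins, among them Krt6, Krt16, Krt17, the Sprr2 proteins and the alarmins, and signals to fibroblasts, vessels and leukocytes in the dermis. The comparison asks what sets a lesion apart from irradiated skin without a lesion.

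No deposited table holds this contrast. It was formed for each gene as the lesional over unexposed minus the non-lesional over unexposed log2 fold change of the authors' deposited tables, so that the unexposed skin cancels. Its standard error (SE) was taken as the larger of the 2 deposited SEs. Values are log2 fold changes ± SE of lesional over non-lesional skin with n = 3 libraries per group, and adjusted p-values are Benjamini-Hochberg values of a two-sided normal test over 15200 genes, unless another contrast is named. The tables hold no value per library, so neither the spread of single libraries, the sequencing depth nor the level of a gene could be shown, and the test rests on the authors' DESeq2 fit. All 3 basal and all 3 suprabasal keratinocyte markers listed (Krt5, Krt14, Trp63, Krt1, Krt10 and Lor) passed the filter on low counts, but their abundance is not known.

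Of the 15200 genes tested 635 differed at an adjusted p under 0.05, which is 4.18%. In lesions 353 were higher (2.32%) and 282 lower (1.86%), and the median absolute log2 fold change of the called genes was 1.20. At an unadjusted p under 0.05 there were 3022 genes. The median over all genes tested was 0.10, and with the fold changes centred on that median the split was 241 higher and 503 lower. The count of calls depends on the SE. An estimate from a count model gave 742 genes, whereas the largest SE that the tables allow, which is reached only if the unexposed libraries carried no error, gave 0 genes at an adjusted p under 0.05 and 1065 at an unadjusted p under 0.05. With a null distribution as wide as the spread of all genes, 0 genes were called, and 924 had an unadjusted p under 0.05.

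**Figure D1:**
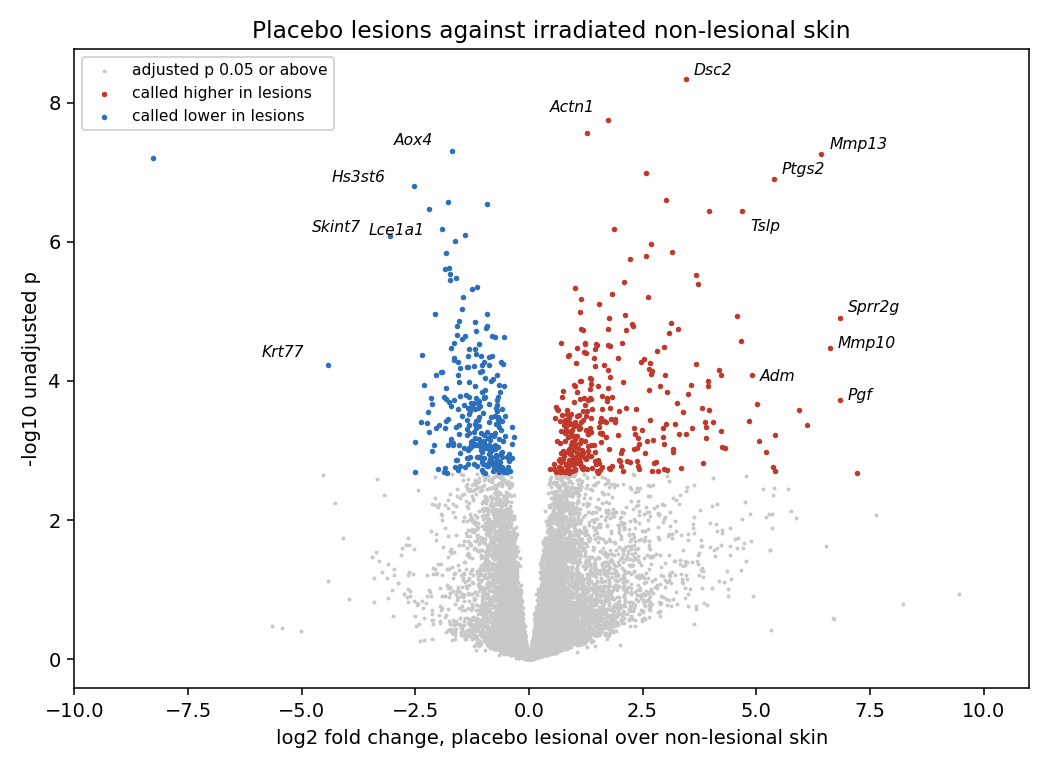
Log2 fold change of placebo lesional over non-lesional skin (x axis) against -log10 of the unadjusted p (y axis), 1 point per gene tested. Red and blue points are the 353 genes called higher and the 282 called lower at an adjusted p under 0.05; Hba-a2, whose fold change is too large to be a size, is not drawn.

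The largest increases with a bounded fold change were in genes of varied function. Trem1, a receptor that amplifies myeloid cell activation, had a log2 fold change of 7.23 ± 2.35 (adjusted p = 0.0499, and 0.0592 with no filter on low counts), and Pgf, a vascular growth factor, had 6.84 ± 1.83 (adjusted p = 0.0149). Sprr2g, a small proline-rich protein of the stressed cornified envelope, was higher by 6.84 ± 1.56 (adjusted p = 0.00376). The proteases Mmp10 and Mmp13 reached 6.62 ± 1.60 and 6.43 ± 1.18, adjusted p = 0.00598 and 0.000138. Ptgs2, the inducible cyclooxygenase (COX-2) that makes prostaglandin precursors, lies at chr1:150100031-150108227 on the plus strand (GRCm38, GENCODE). It was higher by 5.39 ± 1.02, or 41.8-fold (adjusted p = 0.000215). The other genes among the 12 largest were Panx3 (6.12 ± 1.74), a pannexin channel, Col11a1 (5.94 ± 1.63), Upp1 (5.42 ± 1.58), which cleaves uridine, and the red blood cell genes Alas2, Hbb-b1 and Hba-a1.

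The 12 largest decreases were smaller in size, with 1 exception. Krt77, a keratin of the suprabasal epidermis (chr15:101858731-101869705, minus strand, GRCm38), was lower by a log2 fold change of -4.42 ± 1.10 (adjusted p = 0.00774). Skint7 and Skint6, members of a family of immunoglobulin-like proteins made by keratinocytes, had -3.06 ± 0.62 and -2.31 ± 0.60, adjusted p = 0.000633 and 0.0113. Hs3st6, which sulfates heparan sulfate chains, had -2.54 ± 0.48 (adjusted p = 0.000243), and Serpinb7, an epidermal serine protease inhibitor, had -2.19 ± 0.43 (adjusted p = 0.000346). Abca4 (-2.35), a retinoid transporter, the leukotriene receptor Cysltr1 (-2.22), the chemokine receptor Ccr4 (-2.14), the inflammasome sensor Nlrp1a (-2.50, adjusted p = 0.0496, and 0.0588 with no filter), the calcium channel subunit Cacna2d2 (-2.51) and D7Ertd443e (-2.38) were also called lower. The exception was Jmjd7-pla2g4b, at -8.26 ± 1.53. It is a readthrough model over 2 neighbouring genes, and the fold change of Pla2g4b, which shares its reads, was 0.29 ± 0.51 and not called, so its value is uncertain.

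**Figure D2:**
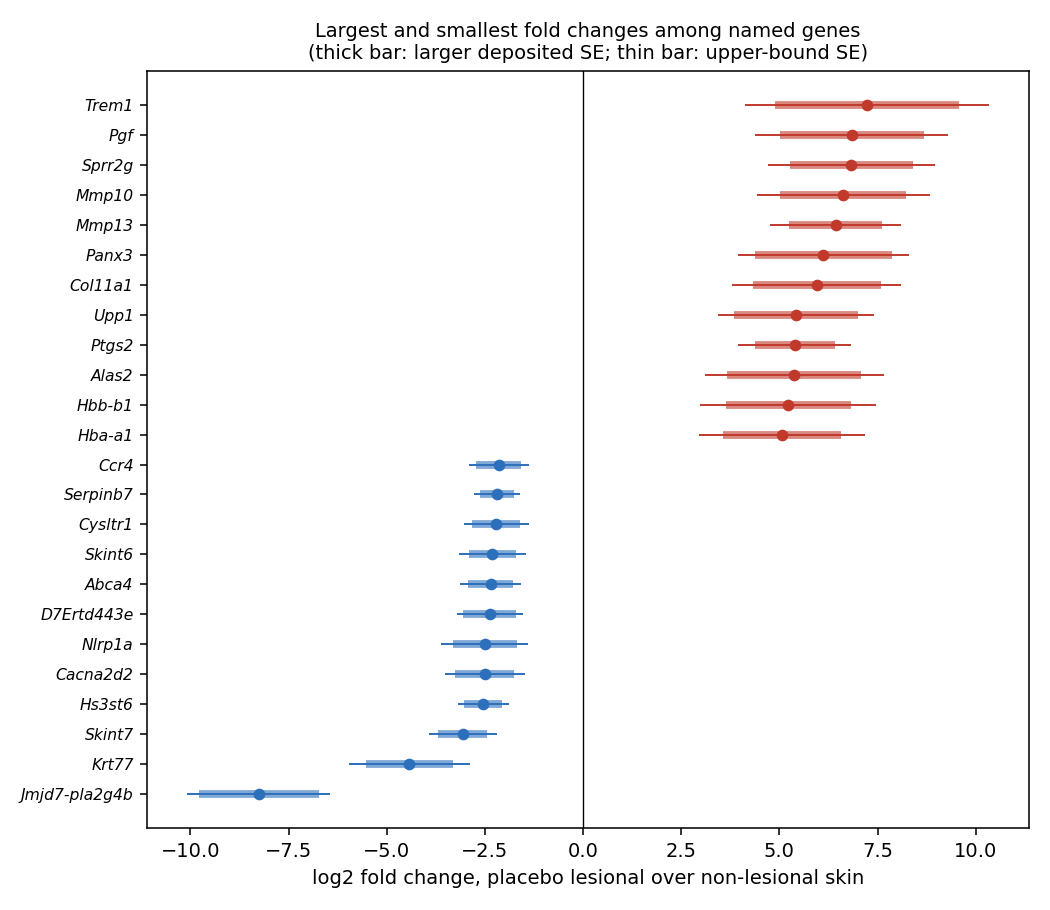
The 12 largest and 12 smallest log2 fold changes of placebo lesional over non-lesional skin (x axis) among called genes chosen by rule. The thick bars are ± the larger deposited SE and the thin bars ± the upper-bound SE. Every bar keeps clear of 0 because the genes were chosen as called, while the upper-bound SE itself called 0 genes.

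Genes of the cornified envelope split by subfamily. Of 45 tested, 2 were higher and 16 lower, with a median of -0.40 against 0.10 for all genes tested. Over all genes tested 2.32% were called higher and 1.86% lower. These shares stand beside the counts of every list below, and a list with 0 or 1 call is near them. Called or not, 56.8% of all genes tested had a positive fold change. The 14 Lce1 genes, which encode late cornified envelope proteins of normal epidermis, lay between -2.09 and -0.86 with a median of -1.65, and 13 of them were called lower. Lce1j had -1.85 ± 0.39 (adjusted p = 0.00134), Lce1c -1.82 ± 0.38 (adjusted p = 0.000905), Lce1d -1.73 ± 0.37 (adjusted p = 0.00151) and Lce1a1 -1.64 ± 0.33 (adjusted p = 0.000707). Lce1k, at -0.86 ± 0.71, was the member not called. Lce1 genes are near-identical neighbours on chromosome 3, so reads may be split between them and they are not independent of each other. The filaggrin-like genes Flg2 and Hrnr were lower by -2.14 ± 0.58 and -1.64 ± 0.40, while loricrin (Lor), the main protein of the shell, missed the threshold at -1.50 ± 0.49 (adjusted p = 0.0512). The Sprr2 and Lce3 genes, which belong to the wounded or psoriatic envelope, had positive fold changes. Of 10 Sprr2 genes 2 were called higher, with a median of 2.74, and of 5 Lce3 genes 0 were called, with values from 3.06 to 4.18 (Lce3d, 3.76 ± 1.40, adjusted p = 0.0948).

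The Lce1 genes were not low in both kinds of irradiated skin. In the authors' deposited tables their median was 1.10 in non-lesional and -0.63 in lesional skin, each over the unexposed libraries that both contrasts share. For Lce1c the authors' deposited tables give 1.14 ± 0.37 (adjusted p = 0.1) in non-lesional and -0.68 ± 0.38 (adjusted p = 0.205) in lesional skin, both over unexposed skin and neither called. Of the 14 Lce1 genes 4 were called higher in non-lesional over unexposed skin in the authors' deposited table (1.13% of all genes), and 1 was called lower in lesional over unexposed skin (8.17% of all genes). Perilesional skin was near non-lesional skin, with a median of 0.06 for the Lce1 genes in the authors' deposited table. The promoters of Lce1c and Lce1j, genes that fell together, are shown because both carry the letters TAAAAGG at the same place, 28 bases before the RefSeq start (GRCm38.p6). The stretches are chr3:92678997-92679246, plus strand, and chr3:92790515-92790764, minus strand, each the 250 bases before the start with the match in capitals.
Lce1c: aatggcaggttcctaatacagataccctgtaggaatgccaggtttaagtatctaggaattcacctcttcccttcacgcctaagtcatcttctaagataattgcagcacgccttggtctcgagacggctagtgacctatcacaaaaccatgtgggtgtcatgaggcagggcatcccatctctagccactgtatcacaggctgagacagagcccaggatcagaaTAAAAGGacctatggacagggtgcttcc
Lce1j: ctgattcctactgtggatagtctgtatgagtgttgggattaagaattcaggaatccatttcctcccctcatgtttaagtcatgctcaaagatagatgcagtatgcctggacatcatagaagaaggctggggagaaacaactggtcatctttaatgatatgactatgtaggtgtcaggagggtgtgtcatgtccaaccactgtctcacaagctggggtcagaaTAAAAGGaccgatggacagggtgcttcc
On either strand TAAAAGG was found in 11 of 13 Lce1 genes with a promoter in the RefSeq table. Its share was 4.89% of all 27025 genes in the table and 4.23% of the genes tested. The letters were chosen after the sequences had been read, and a match is a description of the sequence.

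Keratins and adhesion genes were called in part. Of 10 suprabasal keratins 3 were lower and 0 higher (median -0.62). Beside Krt77 these were Krt78, at -1.65 ± 0.44 (adjusted p = 0.0148), and Krt1, at -1.27 ± 0.38 (adjusted p = 0.0312). Krt10, the partner of Krt1, had -1.38 ± 0.57 and was not called (adjusted p = 0.140). None of 17 basal keratinocyte and hemidesmosome genes was called at an adjusted p under 0.05 (4.18% of all genes), with a median of 0.28. Krt5 had 0.19 ± 0.36, Krt14 0.61 ± 0.35 and Krt15, a keratin of basal and hair follicle stem cells, -0.79 ± 0.46. Among 14 desmosome genes, whose cadherins join keratinocytes, Dsc2 had the smallest p of all genes tested (3.45 ± 0.59, adjusted p = 6.86e-05). Dsg3, a desmoglein of the lower layers, was higher at 1.15 ± 0.34 (adjusted p = 0.0292), and Dsg1a, of the upper layers, was lower at -1.19 ± 0.27 (adjusted p = 0.00412). The other 11 desmosome genes were not called, among them Dsg1b (0.27) and Dsg1c (0.66), whose values were positive.

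All 11 Skint genes tested had negative fold changes, from -3.06 to -0.96 with a median of -1.37, and 4 were called lower. Of all genes tested 56.8% were positive. Skint3 had -1.46 ± 0.32 (adjusted p = 0.00236). Over unexposed skin the median of the 11 genes was -0.72 in non-lesional and -2.09 in lesional skin, in the authors' deposited tables. Among 21 barrier lipid genes 3 were lower: Aloxe3 (-1.25 ± 0.37), a lipoxygenase of the water barrier, Sptlc3 (-0.98 ± 0.30), a subunit that starts sphingolipid synthesis, and Pnpla1 (-0.92 ± 0.28), which makes acylceramides. Fa2h, which hydroxylates the fatty acids of sphingolipids, was higher (4.23 ± 1.08, adjusted p = 0.00922). Klk5, a kallikrein that sheds cornified cells, was lower (-1.21 ± 0.35), and Klk10 was higher (2.23 ± 0.47). They were the only called members among 19 epidermal proteases and inhibitors.

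In the list of 22 stress keratins and alarmins, 6 genes were called higher and 1 lower, with a median of 1.76. Tslp, the epithelial cytokine that drives type 2 immunity, had 4.69 ± 0.92 (adjusted p = 0.000346). The cytokines Il1b and Il33 had 3.67 ± 0.79 (adjusted p = 0.00153) and 1.56 ± 0.50 (adjusted p = 0.0481). The call of Il33 ended with no filter (adjusted p = 0.0571) and when centred on the median (adjusted p = 0.0615). Krt6a was higher by 1.81 ± 0.51 (adjusted p = 0.0209) and Krt17 by 0.91 ± 0.28 (adjusted p = 0.0351), the latter losing its call when centred on the median (adjusted p = 0.0592). Krt16 and Krt6b were not called, at 0.45 ± 0.45 and 1.49 ± 0.78. Nor were S100a8 (3.35), S100a9 (3.64), S100a7a (4.42), Lcn2 (1.20) and Defb14 (0.39). Over unexposed skin Krt16 stood at 3.70 ± 0.45 in non-lesional and 4.15 ± 0.45 in lesional skin in the authors' deposited tables, and the difference between these values is below its SE. Serpinb3b was the member called lower (-0.99 ± 0.26, adjusted p = 0.0145). In the prostaglandin list of 20 genes Ptgs2 was called and the other 19 were not, the synthase Ptges having 0.38.

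Growth factor and AP-1 genes gave a few large values. AP-1 is the family of Fos and Jun transcription factors that responds to growth factors, stress and ultraviolet light. Of 12 AP-1 genes 2 were higher, with a median of 1.25: Fosl1 at 3.27 ± 0.76 (adjusted p = 0.00447) and Fos at 2.03 ± 0.65 (adjusted p = 0.0449). The call of Fos ended with no filter and when centred on the median (adjusted p = 0.0532 in both). Their medians over unexposed skin were -0.44 in non-lesional and 0.11 in lesional skin in the authors' deposited tables. Of 26 genes of EGF receptor ligands and ERK output 4 were higher. They were the ligand Nrg1 (2.64 ± 0.69, adjusted p = 0.0125), the early response gene Ier3 (1.79 ± 0.49, adjusted p = 0.0173), the transcription factor Etv5 (1.11 ± 0.32, adjusted p = 0.0231) and the ERK phosphatase Dusp6 (1.11 ± 0.35, adjusted p = 0.0421, and 0.0619 when centred on the median). The ligands Areg (1.55), Hbegf (1.64) and Tgfa (1.12) were not called.

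Matrix proteases were among the genes with the largest differences. Of 28 protease and inhibitor genes 8 were higher and 0 lower, with a median of 1.93. Beside Mmp10 and Mmp13 these included the stromelysin Mmp3 (3.96 ± 0.78, adjusted p = 0.000346), the gelatinase Mmp9 (4.58 ± 1.04, adjusted p = 0.00366) and Adamts1 (2.12 ± 0.48, adjusted p = 0.00366). Mmp12, the macrophage elastase, had 2.53 ± 0.96 (adjusted p = 0.102). The promoters of Mmp3, Mmp10 and Mmp13, neighbours on chromosome 9, are shown because they moved together and each carries TGANTCA, the letters of the AP-1 consensus, in which N is any base. The stretches are the 250 bases before the RefSeq start (GRCm38.p6, plus strand) at chr9:7445572-7445821, chr9:7502092-7502341 and chr9:7272264-7272513, with the match in capitals.
Mmp3: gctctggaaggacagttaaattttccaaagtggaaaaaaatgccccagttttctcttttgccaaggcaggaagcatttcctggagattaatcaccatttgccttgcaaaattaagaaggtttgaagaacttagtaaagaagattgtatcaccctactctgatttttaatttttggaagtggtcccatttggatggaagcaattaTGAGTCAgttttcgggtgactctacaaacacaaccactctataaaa
Mmp10: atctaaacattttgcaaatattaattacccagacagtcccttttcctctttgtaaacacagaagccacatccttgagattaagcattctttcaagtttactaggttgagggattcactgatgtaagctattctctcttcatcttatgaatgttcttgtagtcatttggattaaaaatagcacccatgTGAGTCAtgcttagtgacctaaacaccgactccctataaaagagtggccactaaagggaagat
Mmp13: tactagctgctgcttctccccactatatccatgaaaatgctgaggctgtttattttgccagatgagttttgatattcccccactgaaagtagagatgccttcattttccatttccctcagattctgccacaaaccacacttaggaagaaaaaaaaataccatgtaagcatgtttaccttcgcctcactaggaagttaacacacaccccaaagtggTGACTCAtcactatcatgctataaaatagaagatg
The match began 46, 63 and 35 bases before the start. Searched on both strands, TGANTCA was found in 6 of 18 matrix protease and inhibitor genes with a promoter in the table, in 4 of the 6 of them called higher, and in 7.82% of all 27025 genes in the table. TGANTCA was found in 6.22% of the genes tested, 11.1% of those called higher and 13.5% of those called lower. The match is a description and does not show binding.

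Genes of fibroblasts and their matrix were also called. Of 27 activated fibroblast and TGF-beta genes 10 were higher and 0 lower, with a median of 1.69. They included Cyr61, a matricellular protein (3.02 ± 0.59, adjusted p = 0.000335), Ltbp1, which stores latent TGF-beta (2.62 ± 0.58, adjusted p = 0.00236), the smooth muscle actin Acta2 (3.09 ± 0.72, adjusted p = 0.00474) and Inhba, the activin A subunit (4.18 ± 1.05, adjusted p = 0.00857). Of 27 collagen genes 3 were higher: Col12a1 (1.87 ± 0.38, adjusted p = 0.000563), Col8a1 (2.84 ± 0.92, adjusted p = 0.0485) and Col11a1. The call of Col8a1 ended with no filter (adjusted p = 0.0574) and when centred on the median (adjusted p = 0.0534). Col1a1, the main collagen of the dermis, had 2.66 ± 0.90 and was not called (adjusted p = 0.0629). The other fibroblast markers listed, Col3a1 (1.91) and Pdgfra (0.97), were not called either. The collagen list had a median of 1.90 in lesional over non-lesional skin, and over unexposed skin of -0.72 in non-lesional and 1.00 in lesional skin in the authors' deposited tables. For perilesional over non-lesional skin the collagen median was 1.01 in the authors' deposited table, and for lesional over perilesional skin it was 0.38. In either contrast 0 collagen genes were called. In bulk skin more cells of a type and more RNA per cell cannot be told apart, and the share of dermis in each piece of skin is not given.

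All 32 genes of glycolysis and the hypoxia response had positive fold changes, against 56.8% of all genes tested. They lay between 0.02 and 4.90 with a median of 1.21, and 14 were called higher. Hif1a, the oxygen-regulated transcription factor, had 1.79 ± 0.43 (adjusted p = 0.00574). Egln3, the prolyl hydroxylase that marks HIF for breakdown, had 1.83 ± 0.40 (adjusted p = 0.00229), and Ndrg1 had 2.69 ± 0.55 (adjusted p = 0.000734). Adm, a vasodilator peptide, was at 4.90 ± 1.24, Car9, a carbonic anhydrase of hypoxic cells, at 3.25 ± 0.88 and Slc16a3, the lactate exporter, at 2.89 ± 0.75, adjusted p = 0.00922, 0.0157 and 0.0114. The glycolytic enzyme Eno1 was higher by 1.45 ± 0.36 (adjusted p = 0.00775). Vegfa, the vascular growth factor, was higher by 1.18 ± 0.38 (adjusted p = 0.0469) and lost its call with no filter (adjusted p = 0.0556) and when centred on the median (adjusted p = 0.0664). The list stood at 0.48 in non-lesional and 1.77 in lesional skin over unexposed skin in the authors' deposited tables. The promoters of Egln3 and Car9 are shown as examples of the list because each carries ACGTG, the core letters of the hypoxia response element, at chr12:54203875-54204124 (minus strand) and chr4:43506776-43507025 (plus strand), the 250 bases before the RefSeq start (GRCm38.p6). The capitals mark the match, which in Car9 lies on the reverse strand and therefore reads CACGT.
Egln3: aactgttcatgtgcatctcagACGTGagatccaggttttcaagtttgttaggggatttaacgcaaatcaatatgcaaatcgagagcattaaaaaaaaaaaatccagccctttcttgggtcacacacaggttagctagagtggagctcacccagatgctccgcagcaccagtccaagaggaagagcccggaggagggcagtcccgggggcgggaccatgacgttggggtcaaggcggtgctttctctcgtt
Car9: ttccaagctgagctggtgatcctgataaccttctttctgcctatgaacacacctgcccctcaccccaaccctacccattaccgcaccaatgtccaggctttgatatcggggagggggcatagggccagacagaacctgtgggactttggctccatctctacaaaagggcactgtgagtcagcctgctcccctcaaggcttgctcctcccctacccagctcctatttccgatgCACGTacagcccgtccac
The matches began 229 and 18 bases before the start. On either strand ACGTG was found in 19 of 30 genes of the list with a promoter in the table, and in 9 of the 12 of them called higher. Its share was 18.5% of all genes in the table and 23.8% of the genes tested. Among all genes called higher it was 28.9%, and among those called lower 21.4%.

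**Figure D3:**
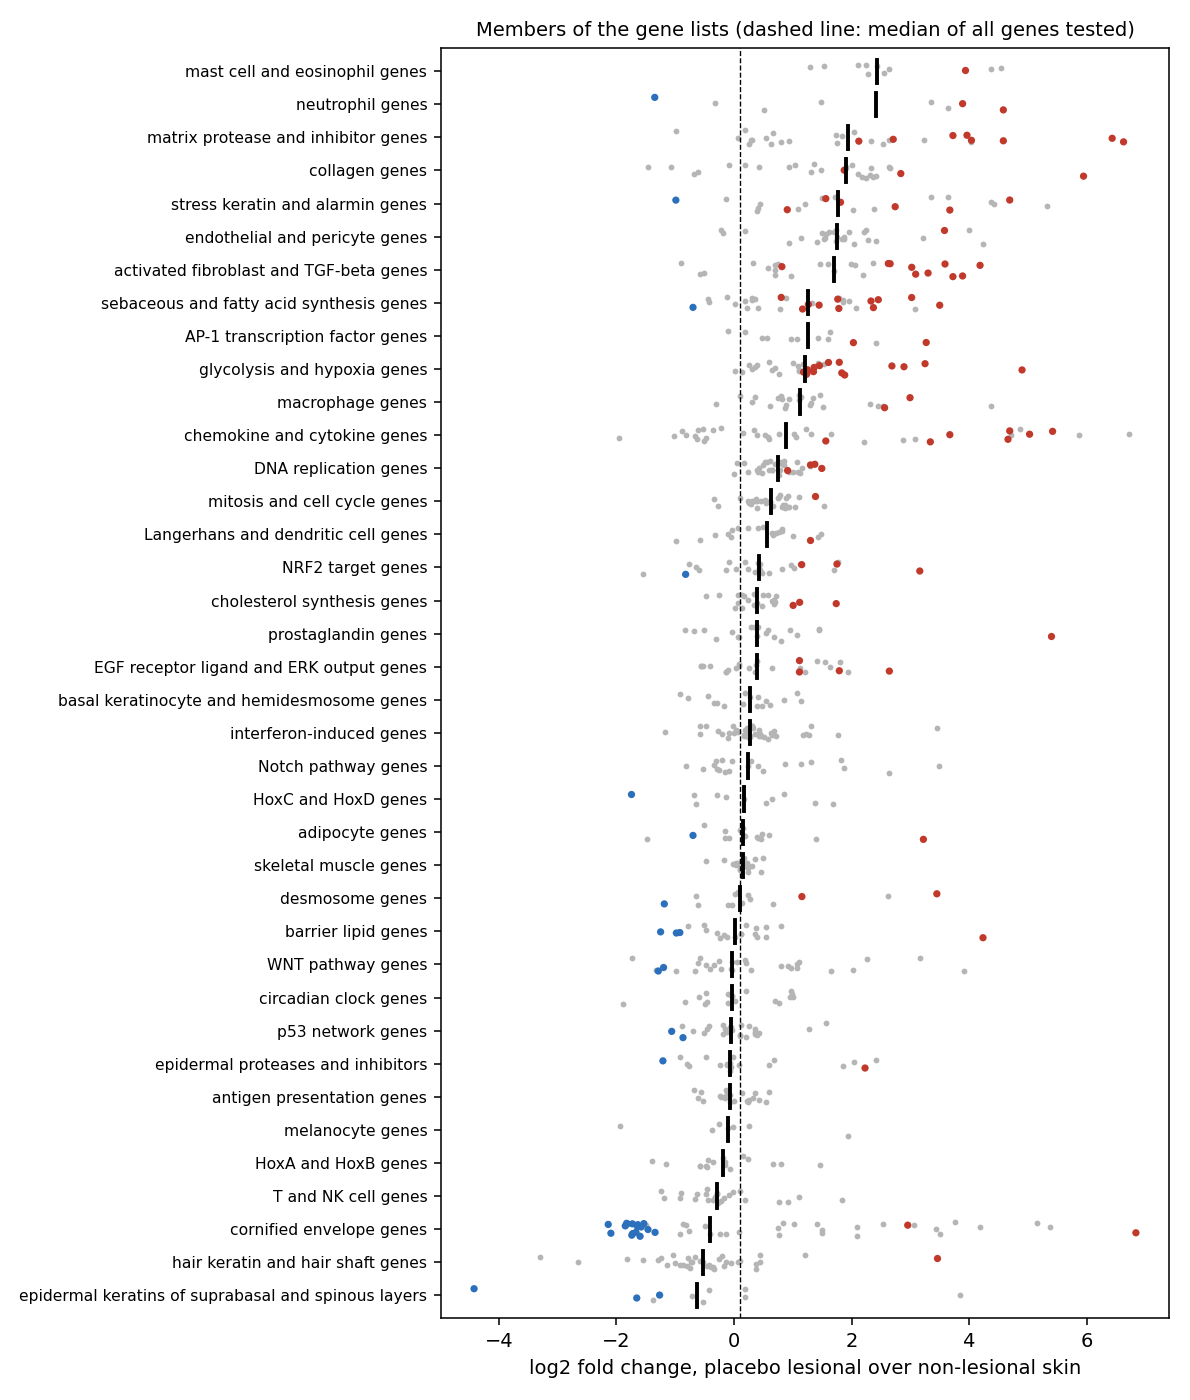
Log2 fold changes of placebo lesional over non-lesional skin (x axis) for the tested members of each gene list with 7 or more tested members (rows). Families taken by symbol, such as the Lce1, Sprr2, Skint and Serpinb genes, have no row of their own. Red and blue points are members called higher and lower, grey points were not called, black bars are list medians and the dashed line is the median of all genes tested, 0.10.

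Proliferation genes had small positive values. Of 34 DNA replication genes 33 were positive, against 56.8% of all genes tested, with a median of 0.75. The 4 called higher were Mcm5 (1.49 ± 0.48), Mcm4 (1.30 ± 0.40), the nucleotide reductase subunit Rrm2 (1.37 ± 0.41) and the clamp loader subunit Rfc2 (0.91 ± 0.28). Mcm4 and Mcm5 are subunits of the replicative helicase. Among 32 mitosis and cell cycle genes Ccnd1, the cyclin of early G1, was the called member (1.38 ± 0.44, adjusted p = 0.0465), and the proliferation marker Mki67 had 0.10 ± 0.29. That count is near the 2.32% called higher over all genes tested. Centring on the median ended the calls of Mcm5, Rfc2 and Ccnd1 (adjusted p = 0.0632, 0.0607 and 0.0619), and no filter those of Mcm5 and Ccnd1 (adjusted p = 0.0574 and 0.0551). In the p53 network of 26 genes Trp53inp1 (-1.06 ± 0.26, adjusted p = 0.00678) and Mdm4 (-0.87 ± 0.26, adjusted p = 0.0326) were lower. The cell cycle inhibitors Cdkn1a and Cdkn2a had 0.43 ± 0.31 and 1.56 ± 0.62 and were not called. Over unexposed skin Cdkn2a had 2.50 ± 0.62 (adjusted p = 0.00802) in non-lesional and 4.07 ± 0.61 (adjusted p = 1.75e-08) in lesional skin, per the authors' deposited tables.

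Of 31 sebaceous and fatty acid synthesis genes 11 were higher and 1 lower, with a median of 1.26. The elongases Elovl6 (2.45 ± 0.61, adjusted p = 0.00752), Elovl3 (3.02 ± 0.86, adjusted p = 0.0219) and Elovl5 (1.26 ± 0.31, adjusted p = 0.00659), the fatty alcohol enzyme Far2 (3.50 ± 0.92, adjusted p = 0.0138), the desaturase Scd1 (2.37 ± 0.72, adjusted p = 0.0330) and the lipid droplet protein Plin2 (1.78 ± 0.46, adjusted p = 0.00972) were among them. Dgat2, the last enzyme of triglyceride synthesis, was lower (-0.70 ± 0.22, adjusted p = 0.0419). The sebocyte markers Awat2 and Mc5r had 0.88 and 1.86 and were not called. Of 23 cholesterol synthesis genes 3 were higher, among them Idi1 (1.12 ± 0.30) and Msmo1 (1.01 ± 0.26). The sebaceous list had a median of 1.11 for perilesional over non-lesional skin in the authors' deposited table, and of -0.01 for lesional over perilesional skin. Elovl6 had 3.06 ± 0.60 (adjusted p = 0.00615) for perilesional over non-lesional skin. This comes from the authors' deposited table, where 17 of 15201 genes (0.112%) were called.

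Several genes of leukocytes and their attractants were higher. Among 38 chemokines and cytokines 7 were called higher and 0 lower, including the neutrophil attractant Cxcl2 (4.66 ± 1.11, adjusted p = 0.00559) and the monocyte attractant Ccl3 (5.03 ± 1.36, adjusted p = 0.0160). Csf3r, the receptor of neutrophils for granulocyte colony-stimulating factor, had 3.89 ± 1.14 (adjusted p = 0.0273), while the decoy receptor Il1r2 was lower (-1.35 ± 0.42, adjusted p = 0.0395). They and Mmp9 were the called members among 8 neutrophil genes, and the neutrophil marker Ly6g was not listed. Of 26 macrophage genes Cd14, the lipopolysaccharide co-receptor (2.99 ± 0.76, adjusted p = 0.00922), and Clec7a, the beta-glucan receptor (2.56 ± 0.78, adjusted p = 0.0357), were higher, and the median was 1.12. The macrophage markers Cd68 (0.87) and Csf1r (0.30) were not called, and Adgre1 was not listed. Hdc, which makes histamine, was higher (3.93 ± 1.01, adjusted p = 0.0106) as the called member of 11 mast cell and eosinophil genes, whose median was 2.43. Fscn1, an actin bundler of mature dendritic cells, was higher (1.30 ± 0.40, adjusted p = 0.0385, and 0.0529 when centred on the median) as the called member of 20 Langerhans and dendritic cell genes. None of 25 T and NK cell genes (median -0.30), 43 interferon-induced genes (0.27) and 22 antigen presentation genes (-0.07) was called at an adjusted p under 0.05. Over all genes tested 4.18% were called. The chemokine Cxcl9, induced by interferon gamma, had 0.51 ± 0.46, after 3.21 ± 0.46 in non-lesional and 3.72 ± 0.45 in lesional skin over unexposed skin in the authors' deposited tables.

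The macrophage genes were low in non-lesional skin on the median. This median in the authors' deposited tables was -1.20 in non-lesional and -0.22 in lesional skin over unexposed skin, and in non-lesional skin 5 of 23 tested were called lower (0.531% of all genes) and 1 higher. In lesional over unexposed skin 3 of 26 were called higher (10.2% of all genes) and 0 lower. Clec7a had -3.97 ± 0.78 (adjusted p = 0.000165) in non-lesional and -1.41 ± 0.72 (adjusted p = 0.162) in lesional skin in the authors' deposited tables. Trem2, a lipid receptor of macrophages, had -3.19 ± 0.78 (adjusted p = 0.00564) in non-lesional and -1.89 ± 0.74 (adjusted p = 0.0574) in lesional skin in the authors' deposited tables. In the authors' deposited tables Mmp12 had -4.04 ± 0.96 (adjusted p = 0.00397) in non-lesional and -1.51 ± 0.95 (adjusted p = 0.272) in lesional skin. For Clec7a, Trem2 and Mmp12 the value in lesions over unexposed skin was thus below 0. Cd14 had -1.14 ± 0.76 in non-lesional and 1.85 ± 0.72 (adjusted p = 0.0554) in lesional skin in the authors' deposited tables. A low non-lesional value also stood beside some genes of other lists. In the authors' deposited tables, with non-lesional before lesional skin over unexposed skin, Csf3r had -3.29 ± 1.14 and 0.59 ± 1.05. Plin2 had -1.72 ± 0.45 (adjusted p = 0.0164) and 0.07 ± 0.45, and Fos had -2.05 ± 0.65 and -0.02 ± 0.64, in the order of the authors' deposited tables just given. The macrophage list had a median of 1.22 for perilesional over non-lesional skin in the authors' deposited table, and of 0.02 for lesional over perilesional skin. For the mast cell and eosinophil list these medians were 1.30 and 1.28. In both lists 0 genes were called in either contrast.

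Red blood cell genes were higher in lesions. Of 6 red blood cell genes tested 4 were called higher, with a median of 5.31. Hbb-b1 had 5.22 ± 1.59 (adjusted p = 0.0350), Hba-a1 5.07 ± 1.50 (adjusted p = 0.0293) and Alas2 5.38 ± 1.71 (adjusted p = 0.0456, and 0.0540 with no filter), and globin genes share reads between copies. The size for Hba-a2 was not bounded. The list stood at -2.11 in non-lesional and 3.16 in lesional skin over unexposed skin in the authors' deposited tables. Of 28 endothelial and pericyte genes 26 were positive, against 56.8% of all genes tested, with a median of 1.74. The 1 called was Pdpn (3.57 ± 0.92, adjusted p = 0.0113), which lymphatic vessels, keratinocytes and fibroblasts also make. That count is near the 2.32% called higher over all genes tested. The endothelial markers Pecam1 (2.04), Cdh5 (1.53) and Kdr (1.74) were not called. The part of blood, vessels and dermis in the increases above was not tested.

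None of 25 skeletal muscle genes was called at an adjusted p under 0.05 (median 0.15), and their medians over unexposed skin were 1.81 in non-lesional and 1.87 in lesional skin in the authors' deposited tables. Melanocyte genes (7 tested, median -0.11) had 0 calls, and of 17 adipocyte genes Fabp4, a fatty acid carrier, was higher (3.22 ± 0.91, adjusted p = 0.0219) and Dgat2 lower. Of 37 hair shaft genes Dsc2 was the called member. The hair list had medians of -1.79 in non-lesional, -5.45 in perilesional and -2.41 in lesional skin over unexposed skin, the perilesional value formed from the authors' deposited tables. In the WNT pathway Axin2, a feedback target (-1.29 ± 0.35, adjusted p = 0.0175), and the ligand Wnt3 (-1.20 ± 0.34, adjusted p = 0.0217) were lower among 31 genes. Hoxc4 was lower (-1.76 ± 0.47, adjusted p = 0.0154) among 11 HoxC and HoxD genes, and none of 17 HoxA and HoxB genes was called. None of 21 Notch pathway and 19 circadian clock genes was called at an adjusted p under 0.05. Over all genes tested 4.18% were called, so 0 calls in a list of this size is near that share. Among 26 NRF2 target genes Akr1b8 (1.75 ± 0.40), Tkt (1.15 ± 0.27) and Gsta4 (3.16 ± 0.96) were higher and Txnrd1 (-0.82 ± 0.19) lower. Aox4, an aldehyde oxidase of skin, and Actn1, an actin cross-linker, had among the smallest p-values of the comparison, at -1.68 ± 0.31 and 1.74 ± 0.31 (adjusted p = 0.000138 and 0.000134).

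The place of perilesional skin differed between genes. Of 15187 genes 81 (0.533%) were called between lesional and perilesional skin, a contrast that shares the lesional libraries. Its SE follows from 3 deposited SEs and is not the larger SE used above, so this count and the 635 come from unlike tests. Ptgs2 had 0.14 ± 1.02 for perilesional over non-lesional skin in the authors' deposited table, and 5.24 ± 1.01 (adjusted p = 0.00106) for lesional over perilesional skin. Tslp had 0.68 ± 0.90 in the authors' deposited table, and 4.0 ± 0.88 (adjusted p = 0.00392), and Fosl1 had -0.22 ± 0.77 in the authors' deposited table, and 3.48 ± 0.75 (adjusted p = 0.00350), in the same order. Egln3 had -0.08 ± 0.40 in the authors' deposited table, and 1.92 ± 0.40 (adjusted p = 0.00224), again in that order. For these 4 genes perilesional skin was closer to non-lesional skin than to lesions. Fa2h had 4.75 ± 1.06 (adjusted p = 0.0184) for perilesional over non-lesional skin in the authors' deposited table, and -0.51 ± 1.05 for lesional over perilesional skin. Panx3 had, in the authors' deposited table, 7.20 ± 1.54 (adjusted p = 0.0146), and -1.08 ± 1.01 in the same order, so for both genes the value of perilesional skin lay nearer to that of lesions. In GZ21T lesions over the same non-lesional libraries Ptgs2 had 1.86 ± 1.02, Tslp 0.74 ± 0.91 and Egln3 -0.34 ± 0.40. Each fold change was combined from 3 deposited ones and each SE from 3 deposited SEs, so it is not the larger SE either. The authors' deposited table of GZ21T over placebo lesions called 3.61% of 10899 genes, Ptgs2, Tslp and Egln3 among them.

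**Figure D4:**
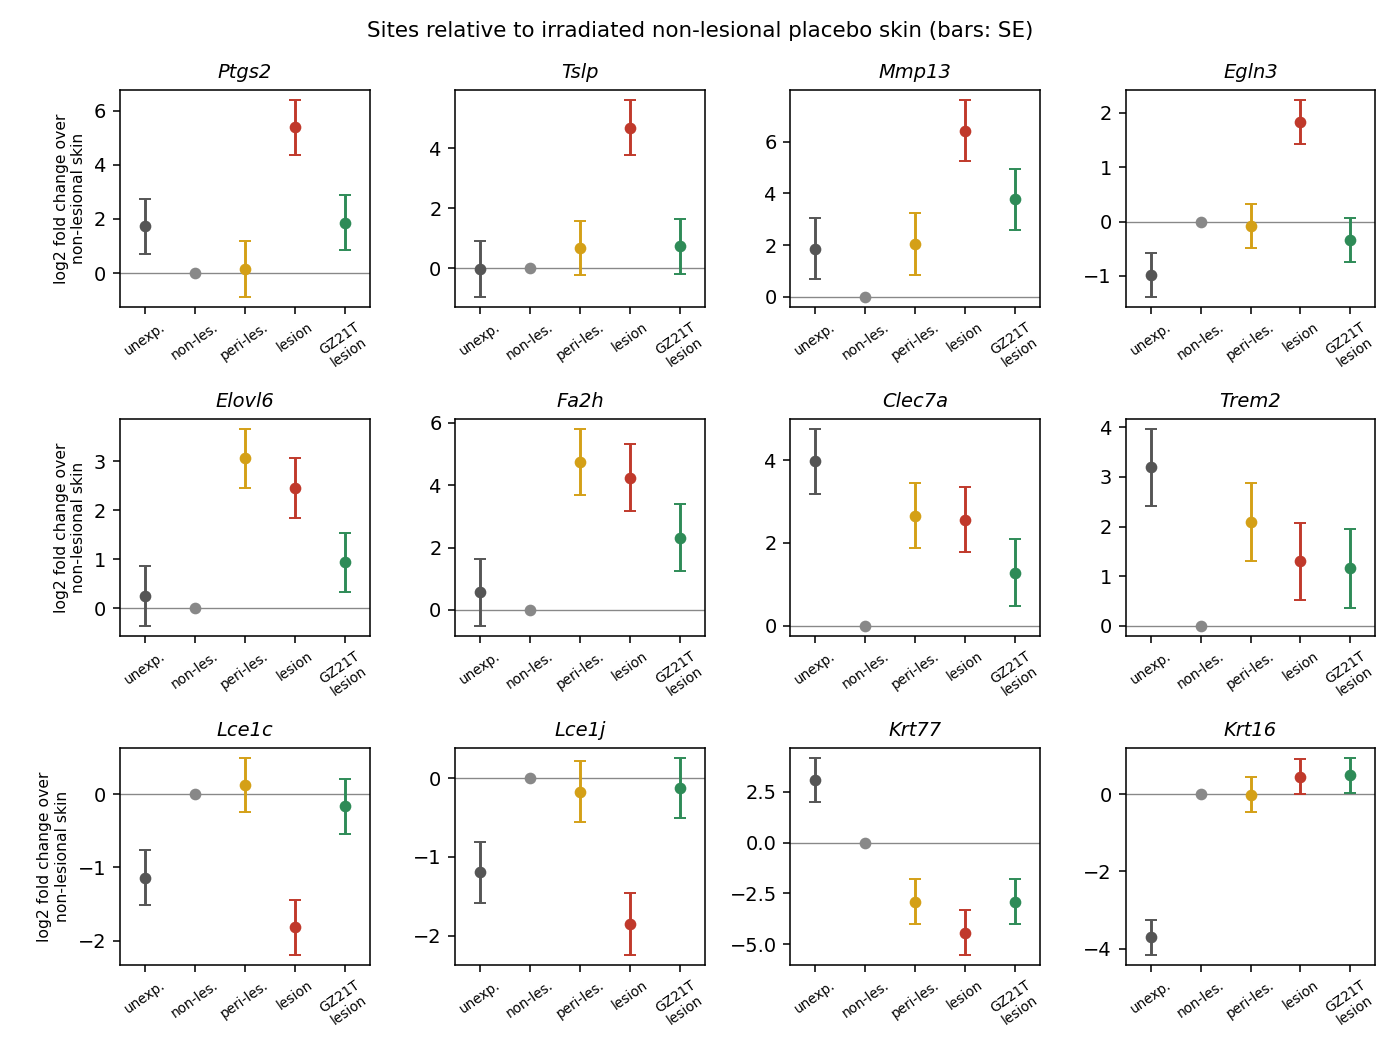
Log2 fold changes over non-lesional placebo skin (y axes, ± SE) of 12 genes in unexposed, perilesional, lesional and GZ21T lesional skin (x axes). Non-lesional skin is 0 by construction. The SE is the larger deposited SE for placebo lesions, combined from several deposited SEs for GZ21T lesions, and as deposited for the others. Ptgs2, Tslp and Egln3 are near 0 in perilesional skin and high in lesions, Elovl6 and Fa2h are high in both, Lce1c and Lce1j are low in placebo lesions, and Krt16 lies far below in unexposed skin.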

How the data were processed

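Per the labels' protocols, RNA was purified on Qiagen RNeasy columns, and sequencing libraries came from the TruSeq stranded kit for total RNA. Trim Galore, DESeq2 and the builds GRCm38 and mm10 are the tools and builds that the submitters' processing notes name. For the aligner, the counter and the DESeq2 design, nothing was found: not given in the sources used here. Per the file headers, the 4 deposited tables hold a log2 fold change, a Wald score (the statistic), a p-value and an adjusted p-value for each gene, and the direction of each table was taken from its header. The name of the table used as lesional over unexposed skin speaks of perilesional and lesional skin, and its header of lesional and back (unexposed) skin; the header was followed. Of 1423 genes at 0 in non-lesional over unexposed skin, 704 were positive and 0 negative in that table. Rows whose symbol reads as a calendar date (25 to 27 per table) were left out.

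Each SE is the deposited log2 fold change over the deposited score. A gene was tested if it had a deposited adjusted p-value in lesional over unexposed skin. A count model that predicts the SE from mean and dispersion was checked on the GZ21T over placebo lesion table (predicted over deposited SE, median 0.996 over 10898 genes). The prediction used the fold changes of that table but not its SEs. For lesional over non-lesional skin its SE was a median of 0.990 times the larger SE, and the upper bound was 1.41 times. Python 3.11.15, numpy 2.4.6, pandas 2.3.3 and scipy 1.17.1 were used, and the tests were checked on simulated data. The simulated errors were normal and drawn from the count model, so that check does not test the size of the SE in the real data. Promoters came from RefSeq (GRCm38.p6) and gene positions from GENCODE mouse release 21.

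The members and gene lists were chosen with earlier results of these data known. Lists are described by counts and medians, without a test. Named genes were the 12 highest and 12 lowest fold changes of called genes with an adjusted p-value in both tables, a log2 fold change under 15 in size and a proper symbol, up to 4 called members per list by adjusted p-value, and 25 fixed genes, of which Flg had no test. Adm, Car9, Skint3, Lce1k, Flg2, Hrnr, Inhba, Elovl3, Scd1, Il33, Pla2g4b, Actn1, Aox4, Lce3d and Slc16a3 were chosen after their values were seen, as were other list members given with a value and no error. The alternatives were the upper-bound and count-model SE, filters on the genes tested, centring on the median and a null spread estimated from all genes. Some genes that the rule names are not reported here.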

Additional observations from a re-analysis of the deposited data

Results flagged for a closer look

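The lesion effect under GZ21T cream was compared with the lesion effect under placebo cream for the named genes. Both effects have the same non-lesional libraries as reference, so their difference is the GZ21T over placebo lesion contrast, taken here with its test from the authors' deposited table (3.61% of its 10899 genes were called at an adjusted p under 0.05). Of 102 named genes tested there, 31 differed. The genes had been chosen with the same placebo lesion libraries, and that choice favours differences opposite in sign to the lesion effect. Neither their number nor the sign of their differences therefore says anything beyond the choice.

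The flagged genes with a negative fold change in placebo lesions, all called lower but Lor, had positive differences. In the authors' deposited table the differences on the log2 scale were 1.72 for Lce1j, 1.65 for Lce1c, 1.46 for Lce1d, 1.40 for Lce1a1, 1.56 for Hrnr and 1.76 for Lor, all genes of the cornified envelope. They were 1.42 for Krt1, 1.06 for Dsg1a, 1.14 for Klk5, 1.43 for Serpinb7, 1.25 for Serpinb3b and 1.06 for Skint3, other genes of keratinocytes, in the authors' deposited table. The remaining positive differences in the authors' deposited table were 1.95 for Hs3st6, 2.00 for Abca4, 1.26 for Aox4 and 1.69 for Hoxc4.

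The flagged genes that were higher in placebo lesions had negative differences. In the authors' deposited table these were -3.53 for Ptgs2, -3.95 for Tslp, -2.46 for Fosl1, -2.03 for Ier3 and -2.08 for Dsc2. The hypoxia genes Hif1a, Egln3 and Ndrg1 had -1.48, -2.17 and -1.96 in the authors' deposited table. There the matrix and fibroblast genes Col12a1, Adamts1, Ltbp1 and Cyr61 had -1.44, -1.86, -1.76 and -2.51, and the actin cross-linker Actn1 had -1.04. The globins Hba-a1 and Hbb-b1 had -5.33 and -5.65 in the authors' deposited table. Over the non-lesional libraries, Ptgs2 was at 5.39 ± 1.02 in placebo and 1.86 ± 1.02 in GZ21T lesions, and Lce1c at -1.82 ± 0.38 and -0.17 ± 0.37. The placebo SE is the larger deposited SE, whereas the GZ21T SE was combined from several deposited SEs.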

How the results depend on the processing

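The count of 635 called genes (353 higher, 282 lower) became 0 (0 higher, 0 lower) with the upper-bound SE, where the smallest adjusted p was 0.0807 for Jmjd7-pla2g4b, and 0 (0 higher, 0 lower) with the null spread from the genes, where it was 0.405 for Actn1. Unadjusted p-values under 0.05 then numbered 1065 and 924. The scaled median absolute deviation of the fold change over its SE was 1.45, which is the width that null takes. Centring on the median gave 744 genes, 241 higher and 503 lower. The count-model SE gave 742, the filters on an adjusted p-value in both tables or in every table gave 671 and 683, and no filter gave 530, all within 1.5 times the main count. Of these 744, 742, 671, 683 and 530 genes, 523, 634, 634, 571 and 527 were among the 635. Centring is the only alternative that alters a fold change, and it turned the direction of no named gene. Under the others the direction was fixed in advance. Centring ended the calls of 10 named genes and no filter those of 9, while 109 lost theirs under the upper-bound SE and 109 under the null spread from the genes. Lor was called with the count-model SE, both filters and centring, with adjusted p from 0.0327 to 0.0477, and Cdkn2a with the count-model SE (adjusted p = 0.0402). The adjusted p of the last gene called was 0.0499 and of the next 0.0501. No paired analysis was possible because the tables hold no value per library, and for the same reason no library could be left out. Low genes are limited by depth, which is not known.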
